A study of Mus musculus with 19 samples.

Results

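The clock output genes examined here are Dbp, Tef, Hlf, Nfil3, Bhlhe40, Bhlhe41, Rora, Usp2 and Nampt, 9 of the 24054 gene symbols of the liver RNA-seq table. They were chosen by symbol, with earlier values of this same contrast (L-RalyKO against control liver) known, so that counts and p values over them describe these livers and are not independent evidence. All 9 passed the filter on low values (a mean of at least 1), which left 11580 genes. Liver RNA came from 3 L-RalyKO and 3 control mice. Both groups were Raly flox/flox littermates in the C57BL/6 background, fed chow under 12 h of light and 12 h of dark, and the study used males unless it says otherwise. The L-RalyKO mice had received AAV8.TBG.Cre, an adeno-associated virus in which the hepatocyte promoter TBG drives Cre recombinase and which removes the floxed exons 3 and 4 of Raly. The controls, which the labels call wild type, carried the same floxed alleles and had received AAV8.TBG.GFP. Livers were taken 4 weeks after injection. The age of the mice and the hour of collection are not given in the sources used here. The study mentions fasting mice for a separate expression measurement in liver and does not state whether these 6 animals were fasted, and each mouse gives a single time point. No phase or amplitude of a rhythm can be read from such data.

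The circadian clock of the liver is a transcriptional loop in which CLOCK and BMAL1 (gene Arntl) activate genes through E-boxes and the PER, CRY and REV-ERB proteins repress that activation. Its rhythm is passed on by output factors. DBP, TEF and HLF, the PAR-bZIP proteins, activate genes through D-boxes, and NFIL3 binds the same D-boxes and represses them. BHLHE40 and BHLHE41 repress at E-boxes, RORA activates at ROR elements, USP2 is a ubiquitin protease with a strongly rhythmic transcript, and NAMPT is the rate-limiting enzyme of NAD salvage. In liver the PAR-bZIP proteins are known for driving detoxification genes.

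The values are reads scaled by the effective size of the library, on the scale of CPM, and are called scaled reads. A log2 difference is L-RalyKO minus control on the log2(value + 1) scale, on which low genes appear to change less than they do. Between 28302983 and 37132274 reads were recovered per control liver and between 34660211 and 38052705 per L-RalyKO liver, and 3 reads correspond to 0.0789 to 0.105 scaled reads. Raly itself had 46.8 to 50.1 scaled reads in controls and 6.34 to 7.39 in L-RalyKO liver. Of 6 hepatocyte markers, 0 were past an adjusted p of 0.05 by limma (2 at unadjusted p under 0.05), and Alb was the highest of them in every liver. Kupffer, endothelial, stellate and cholangiocyte markers (18 tested genes) gave 0 calls by limma as well. The unadjusted p was under 0.05 (limma) for 1 stellate marker, Col3a1, and 1 cholangiocyte marker, Sox9, both higher in L-RalyKO liver. Sox9 had 3.11 ± 0.838 scaled reads in controls and 4.955 ± 0.823 in L-RalyKO liver, without overlap. Its log2 difference was 0.55 (adjusted p = 0.0774, limma, and 0.0264 to 0.222 over its alternatives). Lymphocyte markers summed to at most 2.31 scaled reads and neutrophil markers to at most 0.771. Of 4 adipocyte markers, Cfd separated the groups, with 12.6, 2.73 and 3.46 scaled reads in controls and 0.204, 1.1 and 0.132 in L-RalyKO liver (log2 difference -2.10, adjusted p = 0.0318, limma). The difference of Cfd was -1.52 without control replicate 1 (adjusted p = 0.0284, limma), and its call was lost without L-RalyKO replicate 1 (0.101) or 3 (0.0934), without an intensity trend (0.0589), with all genes of at least 1 read (0.0685), by voom (0.062) and by edgeR (0.149). Lep and Retn were above 0 in control replicate 1 alone and at 0 in the other 5 livers, and Adipoq had at most 0.119. The sum of the 4 was 2.73 to 13.1 in controls, highest in control replicate 1, and 0.132 to 1.1 in L-RalyKO liver. The part of these markers in the results below was not tested. For genes named below, a call gained or lost without control replicate 1 is stated. Without that liver the log2 differences of Rora, Nampt and Bhlhe41, which were not called in either fit, were 0.16, 0.25 and 0.05. In bulk liver, fewer cells of a type and less RNA per cell cannot be told apart.

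The upstream sequences are shown first for Nfil3 and Usp2, whose transcripts differed most between the groups, and for Tef and Bhlhe41, whose windows hold an E-box. They are the 250 bases before the annotated start, 5′ to 3′ on the strand of the gene, from RefSeq on GRCm38.p6, in which windows were found for 8 of the 9 genes (Tef has 2). Capitals mark a motif match.
Nfil3 (chr13:52981040-52981289, - strand): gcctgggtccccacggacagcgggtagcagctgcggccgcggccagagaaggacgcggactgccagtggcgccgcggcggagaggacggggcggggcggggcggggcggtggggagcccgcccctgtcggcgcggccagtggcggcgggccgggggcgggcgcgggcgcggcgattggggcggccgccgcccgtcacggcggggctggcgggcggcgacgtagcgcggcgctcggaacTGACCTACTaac
Usp2 (chr9:44084670-44084919, + strand): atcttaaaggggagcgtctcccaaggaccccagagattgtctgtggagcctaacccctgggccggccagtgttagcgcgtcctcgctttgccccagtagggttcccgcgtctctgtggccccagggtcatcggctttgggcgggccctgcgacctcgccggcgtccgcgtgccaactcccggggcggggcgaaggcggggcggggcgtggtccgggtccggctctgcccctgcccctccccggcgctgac
Tef, first window (chr15:81802423-81802672, + strand): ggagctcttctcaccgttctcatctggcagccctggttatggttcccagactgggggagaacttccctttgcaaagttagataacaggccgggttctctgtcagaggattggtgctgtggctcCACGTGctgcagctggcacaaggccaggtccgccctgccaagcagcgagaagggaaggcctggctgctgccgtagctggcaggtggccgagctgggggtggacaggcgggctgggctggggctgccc
Tef, second window (chr15:81811164-81811413, + strand): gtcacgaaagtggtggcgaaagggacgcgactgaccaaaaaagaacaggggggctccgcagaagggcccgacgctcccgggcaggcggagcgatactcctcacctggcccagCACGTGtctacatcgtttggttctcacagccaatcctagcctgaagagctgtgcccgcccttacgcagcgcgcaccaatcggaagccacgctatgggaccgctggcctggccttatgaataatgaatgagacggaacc
Bhlhe41 (chr6:145865421-145865670, - strand): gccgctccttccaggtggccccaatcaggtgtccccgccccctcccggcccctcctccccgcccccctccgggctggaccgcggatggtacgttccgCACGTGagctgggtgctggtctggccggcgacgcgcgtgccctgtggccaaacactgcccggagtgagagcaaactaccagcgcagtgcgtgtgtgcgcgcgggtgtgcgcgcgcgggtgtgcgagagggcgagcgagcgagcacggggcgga
The E-box CACGTG lies 127 to 122 bases before the start in the first window of Tef, 138 to 133 bases before it in the second, and 153 to 148 bases before the start of Bhlhe41. Windows of 300 bases (250 before to 50 after the start) with CACGTG made up 7.15% of all 32851. In Nfil3 the capitals, 12 to 4 bases before the start, match the ROR element ANTNGGTCA on the opposite strand, a motif that 2.24% of all windows hold. The D-box letters TTATGTAA (0.938% of windows) and TTACGTAA (0.119%) and the E-box variant CACGTT (4.68%) were in none of the 9 windows of these genes. Both strands were searched, and no motif overlapped another in these windows. The window of Usp2 held none of the motifs. What the windows share is base composition. Their GC content was 60.3% to 81.7%, highest in Nfil3, against a median of 52.7% over all windows.

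Nfil3 and Usp2 rose in L-RalyKO liver, the PAR-bZIP genes overlapped between the groups and were not called, and Bhlhe40, Rora and Nampt did not pass the test across all genes. At an adjusted p under 0.05 (limma, Benjamini-Hochberg over 11580 genes) 2 of the 9 genes were called, both higher, beside 6.55% of all tested genes (3.36% higher and 3.19% lower). At an unadjusted p under 0.05 there were 5, beside 22.7% of all genes, and in 3 the groups did not overlap, beside 28.1%. By edgeR 2 of the 9 were called, beside 6.68% of all tested genes, and by DESeq2 4 (Bhlhe40, Nampt, Nfil3 and Usp2), beside 9.4%. Nothing is read from these counts, since the contrast was known when the genes were chosen. The median log2 difference of the 9 was 0.16, beside 0.00444 over all tested genes. Of all genes 389 were higher and 369 lower, and with total count scaling, which moved the median of all genes to -0.027, 324 were higher and 469 lower. The plot of values by liver shows each gene.

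**Figure D1:**
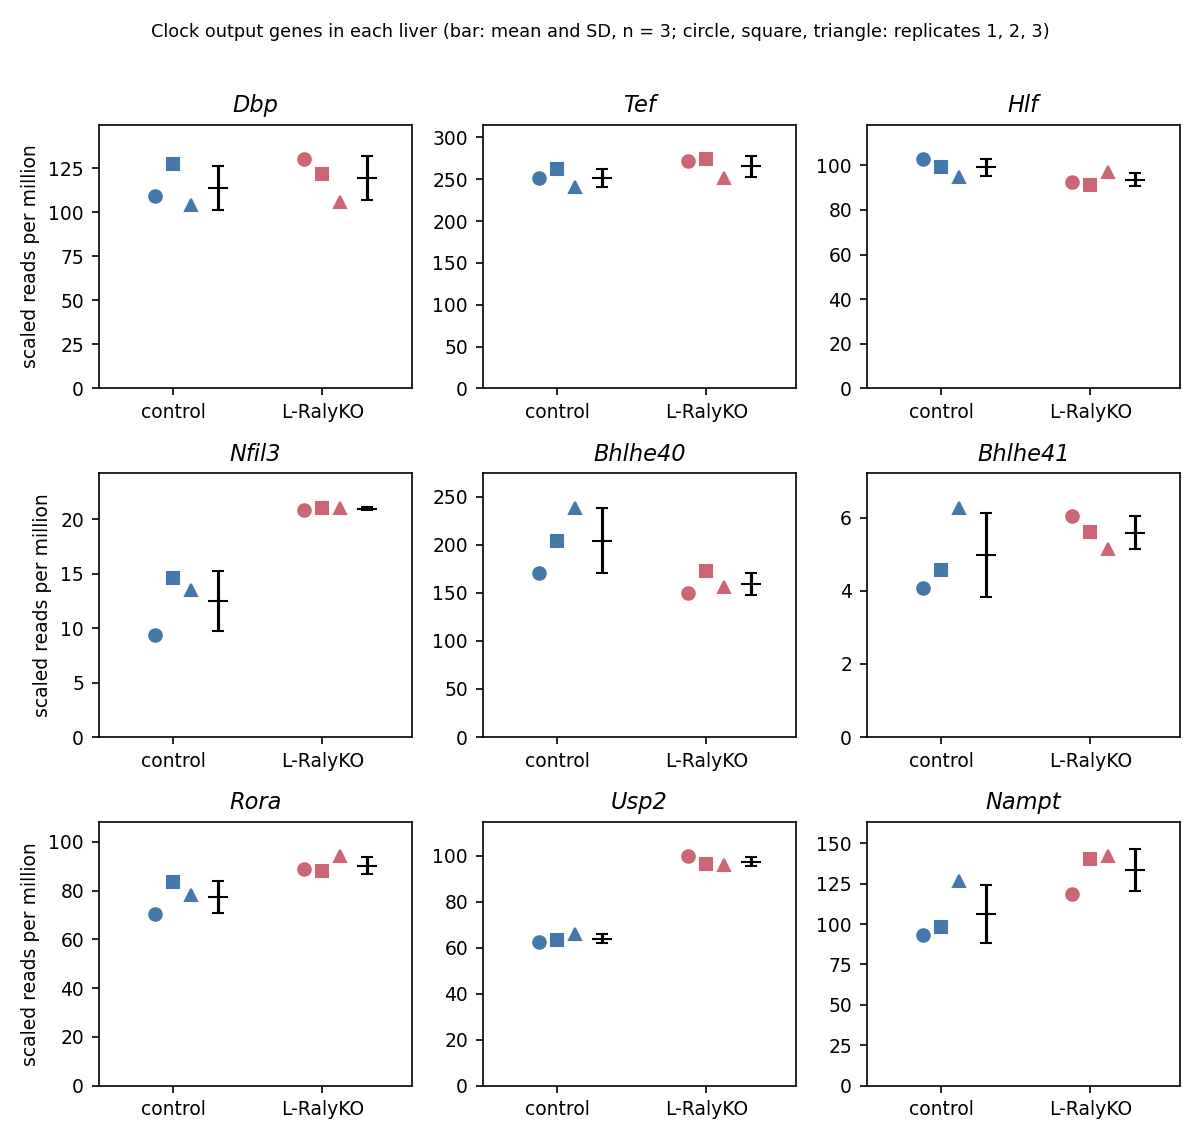
Scaled reads (y axis, from 0) of each clock output gene in every liver, with control in blue and L-RalyKO in red. Points are single livers (circle, square and triangle for replicates 1, 2 and 3) and black bars the mean and SD of 3 livers. Usp2 and Nfil3 sit apart by group (Usp2 at 62.4 to 66.0 in controls and 96.1 to 99.8 in L-RalyKO), while Dbp, Tef and Hlf overlap.

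Among the D-box activators, Dbp had 109, 128 and 104 scaled reads in control replicates 1 to 3 and 130, 122 and 106 in L-RalyKO replicates 1 to 3. The groups overlapped over most of their range. On the log2 scale the difference was 0.07 (SE 0.0943, 95% interval -0.15 to 0.28, adjusted p = 0.72, limma). Tef, the most abundant of the 3 by scaled reads, had 251.5, 263 and 241 in controls and 271, 274 and 251 in L-RalyKO liver. Its groups also overlapped, and the log2 difference was 0.08 (95% interval -0.05 to 0.20, adjusted p = 0.454, limma). Hlf had 103, 99.4 and 94.99 in controls and 92.6, 91.2 and 97.0 in L-RalyKO liver. L-RalyKO replicate 3 lay above control replicate 3, so that these groups overlapped too, and the log2 difference was -0.08 (95% interval -0.20 to 0.03, adjusted p = 0.384, limma). The intervals leave out changes of the PAR-bZIP transcripts as large as those of Nfil3 and Usp2 below. The 3 proteins are related along most of their length. In the annotated coding sequences (GENCODE vM1) TEF and HLF had 55.8% identical positions over 278 aligned columns, DBP and HLF 47.2% over 316 and DBP and TEF 44.3% over 323.

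Nfil3 encodes the repressor that competes with these activators. It had 9.36, 14.6 and 13.5 scaled reads in controls and 20.8, 21.1 and 21.0 in L-RalyKO liver, from 314 to 799 reads per library. Every L-RalyKO liver lay above every control, the controls were spread widely with replicate 1 the lowest, and the L-RalyKO livers were nearly level (coefficient of variation 0.605%, against 22.1% in controls). Counting error at 799 reads or fewer is itself larger than this L-RalyKO spread, so nothing is read from how level these livers were. The mean was 21.0 ± 0.127 against 12.5 ± 2.77 (SD, n = 3 each), a ratio of 1.68. On the log2 scale the difference was 0.73 (SE 0.136, adjusted p = 0.0185, limma). The call was lost when L-RalyKO replicate 1 (adjusted p = 0.0613), 2 (0.0583) or 3 (0.0555) was left out (limma), with log2 differences of 0.72 to 0.73. Without control replicate 1 the log2 difference was 0.55 (adjusted p = 0.00918, limma). The NFIL3 protein shares less with the activators, with 43.3% identical positions to HLF over 67 aligned columns, 32.3% to TEF over 124 and 29.5% to DBP over 122.

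Because activators and repressor meet on the same sites, their transcripts were also set against each other within each liver. The ratio of Dbp to Nfil3 was 11.7, 8.76 and 7.70 in controls and 6.26, 5.80 and 5.03 in L-RalyKO liver, and the ratio of Tef to Nfil3 was 26.9, 18.0 and 17.8 in controls and 13.0, 13.0 and 11.95 in L-RalyKO liver. That of Hlf to Nfil3 was 10.99, 6.81 and 7.01 in controls and 4.45, 4.33 and 4.61 in L-RalyKO liver. In all 3 ratios the groups did not overlap, and control replicate 1 was the highest. The ratios rest on the values of Nfil3 above and were not tested.

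**Figure D2:**
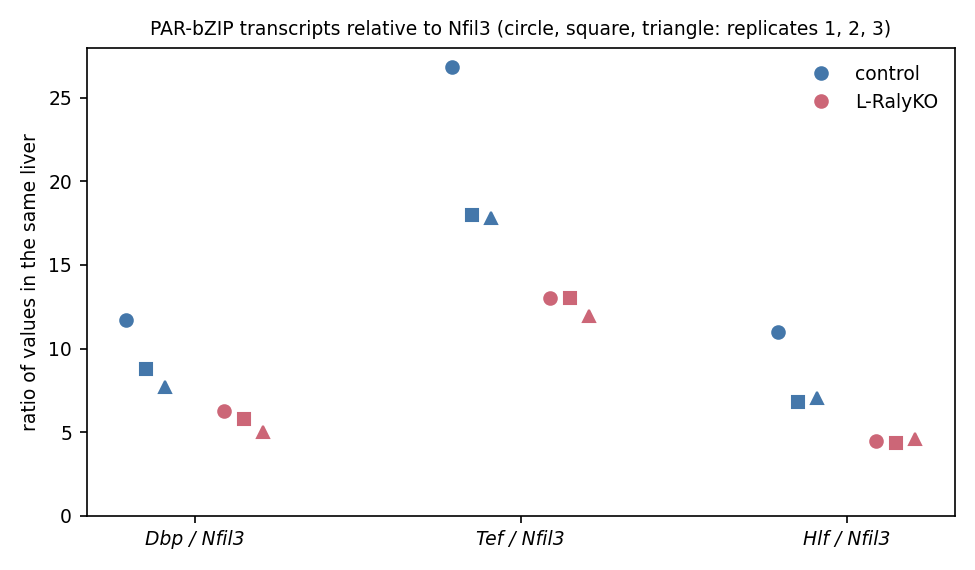
Ratio of the scaled reads of Dbp, Tef and Hlf to those of Nfil3 in the same liver (y axis, from 0), with controls in blue and L-RalyKO in red. Each point is 1 liver. All L-RalyKO livers lie below all controls in each ratio, for Dbp at 5.03 to 6.26 against 7.70 to 11.7.

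Of the E-box repressors, Bhlhe40 had 171, 203.5 and 238.5 scaled reads in controls and 149, 172 and 156 in L-RalyKO liver. Control replicate 1 fell among the L-RalyKO livers, the other controls lay above them, and the mean was 204 ± 33.8 in controls and 159 ± 11.9 in L-RalyKO (SD over 3 mice). On the log2 scale the difference was -0.35 (SE 0.111, adjusted p = 0.104, limma), and the adjusted p was 0.0116 with DESeq2 on the recovered reads and 0.035 by limma without control replicate 1. Bhlhe41 is the sparse relative, with 4.08, 4.56 and 6.27 in controls and 6.05, 5.599 and 5.13 in L-RalyKO liver, from 130 to 232 reads. Its groups overlapped, and the log2 difference was 0.16 (95% interval -0.15 to 0.47, adjusted p = 0.536, limma). Within each liver Bhlhe40 had 38.0 to 44.65 times the scaled reads of Bhlhe41 in controls and 24.7 to 30.8 times in L-RalyKO liver, ranges that did not overlap and were not tested. The 2 proteins had 47.2% identical positions over 377 aligned columns.

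Rora, which encodes the activator at ROR elements, had 70.4, 83.5 and 78.0 scaled reads in controls and 88.8, 87.85 and 94.0 in L-RalyKO liver. The groups did not overlap, but the gap between control replicate 2 and the nearest L-RalyKO liver was smaller than the range within controls. On the log2 scale the difference was 0.22 (SE 0.067, adjusted p = 0.0878, limma). Rora was not called at an adjusted p under 0.05 in any of 16 alternative settings, with adjusted p from 0.0573 to 0.215. Within each liver the ratio of Rora to the core clock gene Nr1d1 was 1.55, 1.68 and 1.95 in controls. It was 1.24, 1.92 and 2.23 in L-RalyKO liver, so that the groups overlapped, and it was not tested.

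Usp2, the ubiquitin protease, was the most tightly separated of the 9. It had 62.35, 63.6 and 66.0 scaled reads in controls and 99.8, 96.7 and 96.1 in L-RalyKO liver, from 1814 to 3651 reads. The spread within either group was below 3% of its mean (2.93% in controls and 2.07% in L-RalyKO), and the groups were far apart. The mean rose from 64.0 ± 1.88 to 97.5 ± 2.02 (SD, n = 3 each), a ratio of 1.52. On the log2 scale the difference was 0.60 (SE 0.0464, 95% interval 0.49 to 0.71, adjusted p = 0.000537, limma), and it was called in all 16 alternative settings, with adjusted p of at most 0.0052 and log2 differences of 0.57 to 0.62. The counts join all transcripts of the gene, of which GENCODE vM1 lists 3.

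Nampt, the NAD salvage enzyme, had 93.2, 98.5 and 127 scaled reads in controls and 119, 140 and 142 in L-RalyKO liver. Control replicate 3 lay above L-RalyKO replicate 1, and the other livers were separated by group. On the log2 scale the difference was 0.34 (SE 0.115, 95% interval 0.07 to 0.60, adjusted p = 0.124, limma). The adjusted p was 0.0403 with DESeq2 on the recovered reads and 0.0176 by limma without control replicate 3, where the log2 difference was 0.47.

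**Figure D3:**
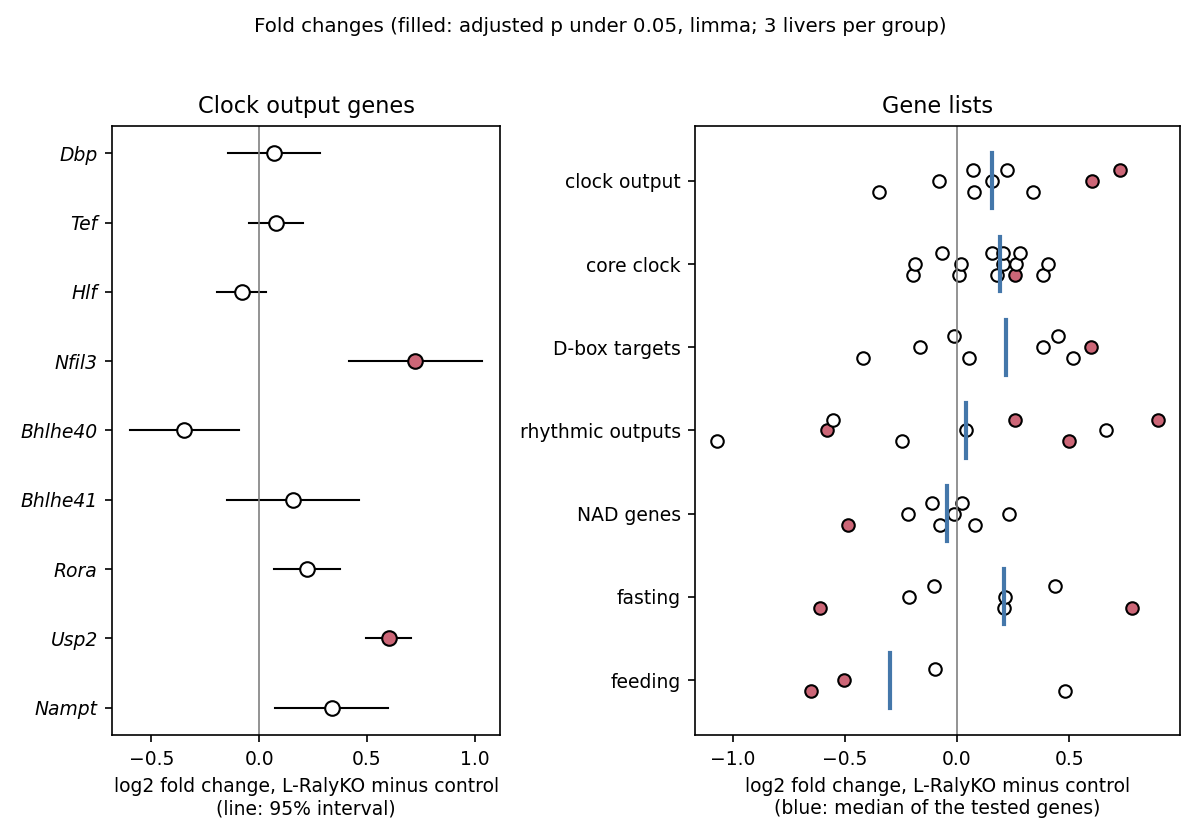
Log2 difference (x axis, L-RalyKO minus control) of each clock output gene with its 95% interval (left) and of the tested genes of 7 lists with the list median in blue (right). Filled points have an adjusted p under 0.05 by limma. Nfil3 at 0.73 and Usp2 at 0.60 are the filled points among the 9, and the rhythmic outputs spread from -1.07 to 0.89.

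Per kilobase of exon (GENCODE vM1, union of the transcripts of a gene) the level in control liver was highest for Bhlhe40 at 62.4 ± 10.3, followed by Dbp at 38.65 ± 4.22, Tef at 32.0 ± 1.37, Nampt at 23.3 ± 3.96, Hlf at 15.25 ± 0.605, Usp2 at 14.6 ± 0.428, Nfil3 at 6.17 ± 1.37, Rora at 5.90 ± 0.503 and Bhlhe41 at 0.794 ± 0.184 scaled reads per kilobase (SD, n = 3). The livers overlapped between Hlf and Usp2 and between Nfil3 and Rora, and between no other neighbours in this order. The overlap of Nfil3 with Rora came from control replicate 1, with 4.62 for Nfil3 and 5.37 for Rora. In control replicates 2 and 3 Nfil3 lay above Rora without overlap. In L-RalyKO liver Usp2, at 22.2 ± 0.461, stood above Hlf, at 14.4 ± 0.468, and Nfil3, at 10.35 ± 0.0626, stood above Rora, at 6.89 ± 0.255, with no overlap between livers in either pair. The order of the other genes was the same in both groups.

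**Figure D4:**
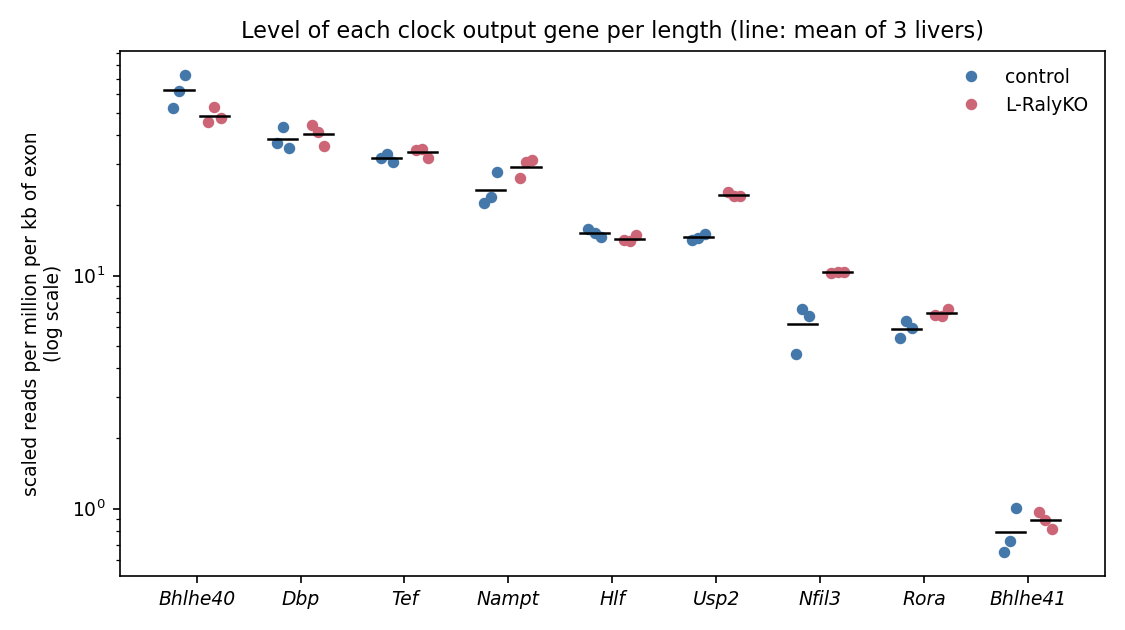
Scaled reads per kilobase of exon (y axis, log scale) of each clock output gene, ordered by its mean in controls, with controls in blue, L-RalyKO in red and black lines at the mean of 3 livers. Bhlhe40 is highest in controls at 62.4 and Bhlhe41 lowest at 0.794, and in L-RalyKO liver Usp2 lies above Hlf.

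On NCBIM37 (mm9), Dbp lies on chromosome 7 from 52960458 to 52965525, Tef on chromosome 15 from 81632851 to 81657291, Hlf on chromosome 11 from 90197849 to 90252231 and Nfil3 on chromosome 13 from 53062578 to 53076442. Bhlhe40 and Bhlhe41 share chromosome 6, from 108610623 to 108616919 and from 145806763 to 145814078. Usp2 (43875104 to 43903708) and Rora (68501593 to 69236053) share chromosome 9, and Nampt lies on chromosome 12 from 33505200 to 33538234. Some exons are shared with genes of the opposite strand, and whether the authors counted by strand is not given in the sources used here. Sphk2 covers 16.7% of the exonic bases of Dbp and had 41.8 scaled reads in controls and 47.1 in L-RalyKO liver, so the values of Dbp are the most uncertain in this respect. Rnf26 covers 4.56% of those of Usp2 and had 12.2 in controls and 11.1 in L-RalyKO liver (log2 difference -0.12, adjusted p = 0.4615, limma). The part of these overlaps in the values was not tested. Hlf, Nfil3 and Bhlhe41 overlap no other annotated gene.

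How Dbp and Nfil3 varied with other genes among mice of 1 group was described by the deviation of each liver from its group mean. Bhlhe41, with a mean under 10 scaled reads, was left out. Dbp and Tef deviated together (Pearson r = 0.935 over the 6 livers), and Nfil3 with Rora (r = 0.894) and Bhlhe40 (r = 0.734), while Dbp and Nfil3 had an r of 0.299. Among 7422 other genes with a mean of at least 10 scaled reads, those most like Dbp were Slc6a12 (r = 0.996), Sdf4 (r = 0.995) and Tmem259 (r = 0.993), and those most opposed were Sde2 (-0.997), Hars (-0.996) and Nabp1 (-0.992). Those most like Nfil3 were Josd1 (r = 0.999), Kmt2d (r = 0.997) and Klf11 (r = 0.996), and those most opposed were Usp39 (-0.993), Slc25a38 (-0.990) and Tesk1 (-0.989). These correlations rest on 6 deviations with 4 degrees of freedom, the genes share libraries and scaling, and no test was made of them. Those of Nfil3 rest on the 3 controls (SD 2.77, against 0.127 in L-RalyKO liver), among which control replicate 1, the liver with the highest adipocyte markers, lay farthest from the mean.

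In the core clock, 1 of 14 tested genes was called (1 higher), beside 6.55% of all tested genes, and the median log2 difference was 0.19. At an unadjusted p under 0.05 (limma) there were 9 of the 14, beside 22.7% of all genes. In 9 the groups did not overlap, beside 28.1%. The list was chosen with the contrast known, so nothing is read from these counts. Ciart, a repressor of CLOCK and BMAL1, was at a log2 difference of 0.40 (limma, adjusted p = 0.0591) and Arntl, close to the filter at 0.894 ± 0.129 in controls and 1.47 ± 0.183 in L-RalyKO liver, of 0.38 (limma, adjusted p = 0.089). Ciart was called by DESeq2 (adjusted p = 0.00878) and by limma without control replicate 3 (0.0221), and Arntl by limma without an intensity trend (0.044). Npas2 did not pass the filter.

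Of 8 genes described as targets of D-box factors in liver, 1 was called (1 higher), beside 6.55% of all tested genes, and the median log2 difference was 0.22. At an unadjusted p under 0.05 (limma) there were 3, beside 22.7% of all genes, and in 2 the groups did not overlap, beside 28.1%. Por, the electron donor of the microsomal cytochromes P450, rose from 616.5 ± 64.2 to 929 ± 48.5 scaled reads (log2 difference 0.60, adjusted p = 0.00531, limma, and at most 0.0272 over its alternatives). Cyp2a5, a P450 of coumarin and nicotine metabolism, had 790 ± 188 in controls and 1118 ± 173 in L-RalyKO liver (log2 difference 0.52, adjusted p = 0.0974, limma). Alas1, the first enzyme of heme synthesis, had 716, 507.5 and 1115 scaled reads in controls and 1123, 1027 and 893.5 in L-RalyKO liver, a spread within controls that covers all of the L-RalyKO livers but the highest (log2 difference 0.45, adjusted p = 0.309, limma). Without control replicate 3 the difference of Alas1 was 0.74 and was called (adjusted p = 0.0259, limma), and without control replicate 2 it was 0.18 and was not called. The difference of Cyp2a5 without control replicate 2 was 0.70 and was called (adjusted p = 0.0218, limma). By log2 difference 5 of the 8 were higher and 3 lower. The others were Cyp7a1 (0.38), Ppara (0.05), Nr1i3 (-0.01), Fgf21 (-0.16) and Cyp2a4 (-0.42), with adjusted p from 0.198 to 0.916 (limma). Cyp2a4, close to the filter, had 1.36 ± 0.282 scaled reads in controls and 0.781 ± 0.3545 in L-RalyKO liver, without overlap.

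Of 9 other rhythmic transcripts of liver, 4 were called (3 higher, 1 lower), beside 6.55% of all tested genes (3.36% higher and 3.19% lower), and the median log2 difference was 0.04. At an unadjusted p under 0.05 (limma) there were 7, beside 22.7% of all genes, and in 4 the groups did not overlap, beside 28.1%. Upp2, a uridine phosphorylase, rose from 453 ± 94.1 to 831 ± 36.0 scaled reads (log2 difference 0.89, adjusted p = 0.00806, limma). Klf10, a zinc finger repressor, rose from 28.9 ± 1.90 to 41.25 ± 2.13 (0.50, adjusted p = 0.00473, limma), and Gys2, the liver glycogen synthase, from 348 ± 1.07 to 416 ± 27.5 (0.26, adjusted p = 0.0332, limma). Insig2, which retains the SREBP escort protein in the endoplasmic reticulum, fell from 133.5 ± 22.5 to 88.3 ± 6.11 (log2 difference -0.58, adjusted p = 0.019, limma). The call of Gys2 was lost in each fit without 1 liver except that without L-RalyKO replicate 2 (adjusted p from 0.055 to 0.0938, limma) and also with total count scaling (0.061), without an intensity trend (0.0716) and with all genes of at least 1 read (0.0566), and that of Insig2 without L-RalyKO replicate 1 (0.0735). Rgs16, a regulator of G protein signalling, had 384.5, 219 and 369 scaled reads in controls and 243, 69.9 and 196 in L-RalyKO liver (log2 difference -1.07, adjusted p = 0.171, limma), and Lonrf3 was at a log2 difference of 0.66 (limma, adjusted p = 0.0637). Over its alternatives the difference of Rgs16 ranged from -1.42 to -0.53, the smallest being that without L-RalyKO replicate 2. Lonrf3 was called by DESeq2 (adjusted p = 0.00105) and by limma without L-RalyKO replicate 1 (0.0174).

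Around Nampt, 1 of 8 tested genes of NAD synthesis and use was called (1 lower), beside 6.55% of all tested genes, and the median log2 difference was -0.04. At an unadjusted p under 0.05 (limma) there were 3, beside 22.7% of all genes, and in 2 the groups did not overlap, beside 28.1%. Nmnat3, which encodes the mitochondrial enzyme for the step after NAMPT, fell from 8.75 ± 0.527 to 5.99 ± 0.699 scaled reads (log2 difference -0.48, adjusted p = 0.0197, limma). Its call was lost when control replicate 1 (adjusted p = 0.0567), control replicate 2 (0.06), L-RalyKO replicate 1 (0.0745) or L-RalyKO replicate 3 (0.0584) was left out (limma). Sirt1, an NAD-dependent deacetylase, was at a log2 difference of 0.23 (limma, adjusted p = 0.108) and Nmrk1, a kinase of nicotinamide riboside, of -0.22 (limma, adjusted p = 0.179).

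Several of these transcripts also follow feeding, and genes of that response were measured beside them. Of 7 fasting genes 2 were called (1 higher, 1 lower), beside 6.55% of all tested genes. Pck1, the gluconeogenic enzyme, rose from 3185 ± 382 to 5448 ± 149.9 scaled reads (log2 difference 0.78, adjusted p = 0.00312, limma), and G6pc, which releases glucose, fell from 990.3 ± 87.45 to 651 ± 92.1 (-0.61, adjusted p = 0.0125, limma). Igfbp1 (0.44, adjusted p = 0.617, limma) and Pdk4 (0.21, adjusted p = 0.41, limma) had the next largest differences. Igfbp1 had 43.8, 47.0 and 147 scaled reads in controls and 112, 57.1 and 119 in L-RalyKO liver, and its log2 difference was 0.99 without control replicate 3 (adjusted p = 0.077, limma) and 0.13 without control replicate 1 (0.925). Of 4 tested genes of the fed state 2 were called, both lower, beside 3.19% of all tested genes. These were Srebf1, the gene of SREBP1 (-0.65, adjusted p = 0.0173, limma, and 0.0649 without L-RalyKO replicate 1 and 0.063 without control replicate 1), and Fasn, the fatty acid synthase (-0.50, adjusted p = 0.0445, limma, and 0.053 to 0.116 in the fits without L-RalyKO replicate 1, 2 or 3 or control replicate 1 or 2, 0.0737 by edgeR, and by limma 0.0808 without an intensity trend and 0.0913 with all genes of at least 1 read). Acacb, an acetyl-CoA carboxylase, was at a log2 difference of -0.10 (limma, adjusted p = 0.63). The medians were 0.21 for fasting and -0.30 for feeding genes. The part of feeding state in the values of the clock output genes was not tested.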

How the data were processed

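RNA-seq of 6 livers was analysed. The other 13 samples (ATAC-seq and ChIP-seq) were not analysed here. Each column names a virus and a replicate number, by which it was assigned. The methods describe stranded KAPA libraries, TopHat on mm9 and FPKM from Cufflinks 2.0.2, and the counting and scaling behind the deposited values are not stated. The deposited values are a scaled signal. In each column 100% of them were whole multiples (within 0.001) of the smallest positive value, taken as 1 read, and the scaling factors obtained from them equalled TMM factors.

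Groups were compared with limma 3.58.1 (R 4.3.3, intensity trend) on log2(value + 1), which understates changes of low genes, among genes with a mean of at least 1, with Benjamini-Hochberg adjustment. The design had foreseen this for normalized values. EdgeR 4.0.16, DESeq2 1.42.0 and voom used the recovered reads. Intervals are at 95%. Precision is limited by 3 mice per group, for which an exact permutation test cannot go below p = 0.1. The limma p values set the group difference against the spread between livers, which limma estimates with the help of all tested genes. That spread also holds counting error. No library was a repeat of another of its group (chi-square per degree of freedom at least 12.6). Tests were tried on simulated data with 200 changed genes.

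The genes and all lists were chosen with earlier results of these data known. Named are all 9 genes and, of each list, the called genes (at most 4) and the 2 with the largest other differences. For the D-box targets the others are given as well. Results of 2 list genes that this rule would name are not reported here. The genes most like Dbp and Nfil3 were the 3 highest and 3 lowest correlations. Exons and coding sequences come from GENCODE vM1 on NCBIM37, the same build as mm9, and promoter windows from RefSeq on GRCm38.p6. Proteins were aligned locally (Biopython 1.88, BLOSUM62) from the longest coding transcript, and no residues are printed.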

Additional observations from a re-analysis of the deposited data

How the results depend on the processing

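Alternatives were other tests, scalings, filters on low values and pseudocounts, a replicate block, a looser threshold and leaving out each liver in turn. Over 16 settings for each of the 9 genes, 136 of 144 values kept their direction and side of the threshold, and the log2 difference of none of the 9 changed sign in these settings. The other 8 concerned Nfil3 (adjusted p from 0.0555 to 0.0613 without single L-RalyKO livers), Bhlhe40 and Nampt, and the cause was not tested. The 758 genes called were 484 when each gene with 1 or more reads entered, so that more genes were tested, and 1389 at an adjusted p under 0.1. Fits without 1 liver gave 332 to 813 genes, 1 to 3 of the 9 clock output genes, 0 to 2 core clock genes (limma, with 8 to 9 at unadjusted p under 0.05 where the count was 0), 1 to 2 D-box targets, 3 to 4 rhythmic outputs, 0 to 1 NAD genes (1 to 3 at unadjusted p under 0.05) and 2 to 4 fasting and feeding genes, with fewer samples. DESeq2 called 4 clock output genes (Bhlhe40, Nampt, Nfil3 and Usp2) and 4 core clock genes, and called 1088 genes, or 9.4%. Without an intensity trend 2 of 14 core clock genes were called, beside 536 of all 11580 tested genes. Of all 11580 tested genes, 1389 were called at an adjusted p under 0.1 (limma). Among them were 3 of the 9 clock output genes (Nfil3, Rora and Usp2), 7 of 14 core clock genes and 2 of 8 D-box targets. Testing all genes with at least 1 read left 0 NAD genes (limma, 3 at unadjusted p under 0.05, and 1 each by edgeR, DESeq2 and voom with the usual filter).

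Deviations of same-numbered livers had correlations of 0.0664, -0.0238 and 0.0196 over all tested genes, and 3 of 6 livers correlated best with their own number. With 3 livers per group these values cannot decide whether the replicate numbers pair the mice. No pairing is stated in the sources used here. With the replicate block 704 genes were called, with Nampt among them (adjusted p = 0.0452, limma), and 2 core clock genes, Ciart (adjusted p = 0.0294, limma) being the one added, and 7 rhythmic outputs, those added being Rgs16 (0.0205), Lonrf3 (0.0233) and Elovl3 (0.0319). Bhlhe41 and Nfil3 had the fewest reads of the 9 genes (at least 130 and 314), and counting error was not separated from the spread between mice.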
